A study of Mus musculus with 32 samples.

Results

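RNA of Epcam+ lung epithelial cells that had been grown with EVs was compared with RNA of Epcam+ cells that had been grown with vehicle. The comparison holds 8 of the 32 libraries of the study, 4 per group, chosen by population and treatment as labelled, and each mouse number stands for 1 animal that gave a culture to both groups. CD45-/CD31-/Epcam+ cells were isolated from lungs of naive C57BL/6 J mice of 8 to 14 weeks, and 300000 of them were mixed 1:1 in Matrigel with CCL206, mouse lung fibroblasts of an established line that mitomycin C had kept from dividing. Every culture of the study, vehicle included, therefore contained the same fibroblast line. EVs are extracellular vesicles secreted by MRC5, a human lung fibroblast line, and were added at 1000000000 particles per mL after ultrafiltration and size exclusion chromatography. After 72 h the cultures were dissolved, and Epcam+ cells were separated again from CCL206 cells on CD326 microbeads. The other treatments of the same mice were the soluble factor fraction of the same medium (SFs, 30 µg/mL) and recombinant OGN (osteoglycin, 10 µg/mL).

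The Epcam+ fraction of the lung holds alveolar type II cells (AT2), which secrete surfactant and renew the alveolar epithelium, flat alveolar type I cells (AT1), and the club, ciliated and basal cells of the airway. Fibroblasts beside AT2 cells supply growth factors such as Fgf7 and Hgf and build the extracellular matrix. Epithelial cells answer bacterial products and cytokines of the interleukin-1 and interleukin-17 families with secreted acute phase proteins and neutrophil chemokines, many of them targets of NF-kB and C/EBP transcription factors.

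The libraries matched their labels in the epithelial markers Epcam and Sftpb, but not all of them did in Sftpc. Epcam lay between 229 and 318 CPM (counts relative to the library total) in the 8 Epcam+ libraries, against 6.90 to 20.9 CPM in the CCL206 libraries of the same cultures. Sftpb, a surfactant protein of AT2 cells, reached 3397 to 4273 CPM in the Epcam+ libraries and 270 to 747 CPM in CCL206. The separation was not complete, since Col1a2, a fibroblast collagen, was found at 672 to 1253 CPM in the Epcam+ libraries, against 3436 to 5338 CPM in CCL206. One epithelial library stood apart. Normalized counts of Sftpc, the surfactant protein that defines AT2 cells, were 4310 in the vehicle-treated library of mouse 1 and between 22093 and 44766 in the other 7. At 674 CPM of Sftpc, this library lay below the CCL206 libraries of the same cultures, which held 1003 to 2717 CPM. Mouse 4 gave fewer basal cell transcripts than the other mice in both groups. Depth was 3067660 to 16662822 counts with vehicle and 4317181 to 17675454 counts with EVs. A gene with 0 counts in any of the 32 libraries is not listed, so most immune markers (11 of 12) and endothelial markers (9 of 10) could not be examined. Listed were 10 of 16 basal, 8 of 15 club and 5 of 13 ciliated cell markers, and 11 of 19 acute phase and antimicrobial genes. Each of these was also counted in every CCL206 library.

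EVs raised a set of secreted defence genes and genes of fibroblasts and matrix, and lowered genes of basal and club cells and of xenobiotic metabolism. Of 11716 genes tested, 104 differed at an adjusted p under 0.05 (edgeR's quasi-likelihood F test, paired by mouse), which is 0.888% of the genes. Of these, 63 were higher with EVs (0.538% of the genes) and 41 were lower (0.35%). The changes were small. The median absolute log2 fold change was 0.58 among the 104 genes and 0.11 over all genes, 52 of the 104 genes changed less than 1.5-fold, and 8 changed more than 2-fold, all of them upward. Each of the 104 genes moved in the same direction in 4 of 4 mice, as a call in a paired model favours. The normalized counts of the groups did not overlap in 72 of the 104 genes, against 4.54% of all genes tested. The choice of these genes by a test on the same libraries favours this too. The number of calls depended on each animal, and was 18 without mouse 1, 28 without mouse 2, 17 without mouse 3 and 156 without mouse 4. The call was kept in each of these fits by 13 of the 104 genes, namely Chil1, Lcn2, Cxcl5, Saa3, Cxcl3, Pik3r5, Krt5, Krt15, Aqp3, Scgb1a1, Bpifa1, Adh7 and Lgi3; every other gene lost it without at least 1 mouse.

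**Figure D1:**
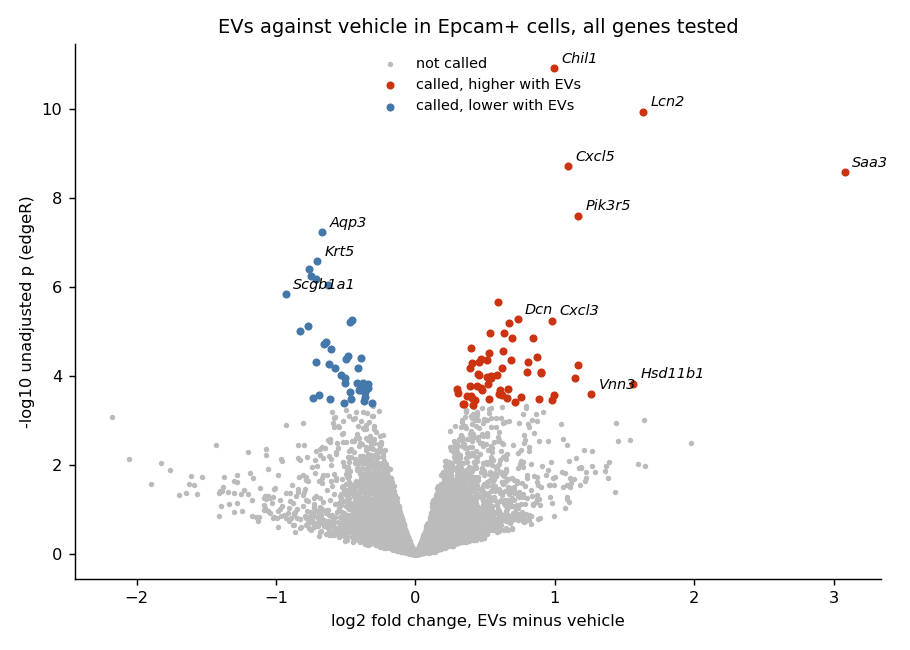
Change of each of the 11716 genes in Epcam+ cells, with the log2 fold change of EVs against vehicle on the horizontal axis and -log10 of the unadjusted p of edgeR on the vertical axis. The 63 genes higher with EVs are red, the 41 lower genes are blue, and Saa3, Lcn2, Chil1 and Cxcl5 stand apart at the upper right.

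Secreted defence genes gave the clearest changes. Chil1 encodes a chitinase-like protein that AT2 cells secrete. Its normalized counts were 1544, 1109, 1240 and 1363 with vehicle in mice 1 to 4, and 3071, 2283, 2405 and 2730 with EVs. The groups did not overlap, and the log2 fold change was 0.99 ± 0.077 (SE, n = 4 mice, edgeR adjusted p = 1.42e-07). Lcn2, lipocalin-2, binds bacterial siderophores and so withholds iron. It was counted at 246, 291, 170 and 276 with vehicle and at 918, 602, 695 and 765 with EVs, a log2 fold change of 1.64 ± 0.14 (edgeR adjusted p = 6.69e-07). Every EV-treated library lay above every vehicle-treated library. Cxcl5, a neutrophil chemokine of epithelial cells, went from 629, 563, 822 and 561 to 1445, 1554, 1364 and 1181 (log2 fold change 1.099 ± 0.11, edgeR adjusted p = 7.42e-06), again without overlap.

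Saa3, an acute phase serum amyloid A protein, had the largest fold change of the 104 genes and the lowest counts. Raw counts were 18, 2, 4 and 1 in the vehicle-treated libraries of mice 1 to 4, and 69, 18, 107 and 108 in the EV-treated ones. The log2 fold change was 3.08 ± 0.32 (edgeR adjusted p = 7.78e-06), and its size rests on these few vehicle counts. Cxcl3, another neutrophil chemokine, went from 170, 89.3, 148 and 112 normalized counts to 309, 248, 245 and 270 (log2 fold change 0.98 ± 0.16, edgeR adjusted p = 0.00406). Vnn3, a pantetheinase, rose from 32.6, 29.8, 31.97 and 20.2 to 80.9, 83.6, 52.0 and 65.2 (log2 fold change 1.26 ± 0.29, edgeR adjusted p = 0.0367). Neither gene overlapped between the groups.

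**Figure D2:**
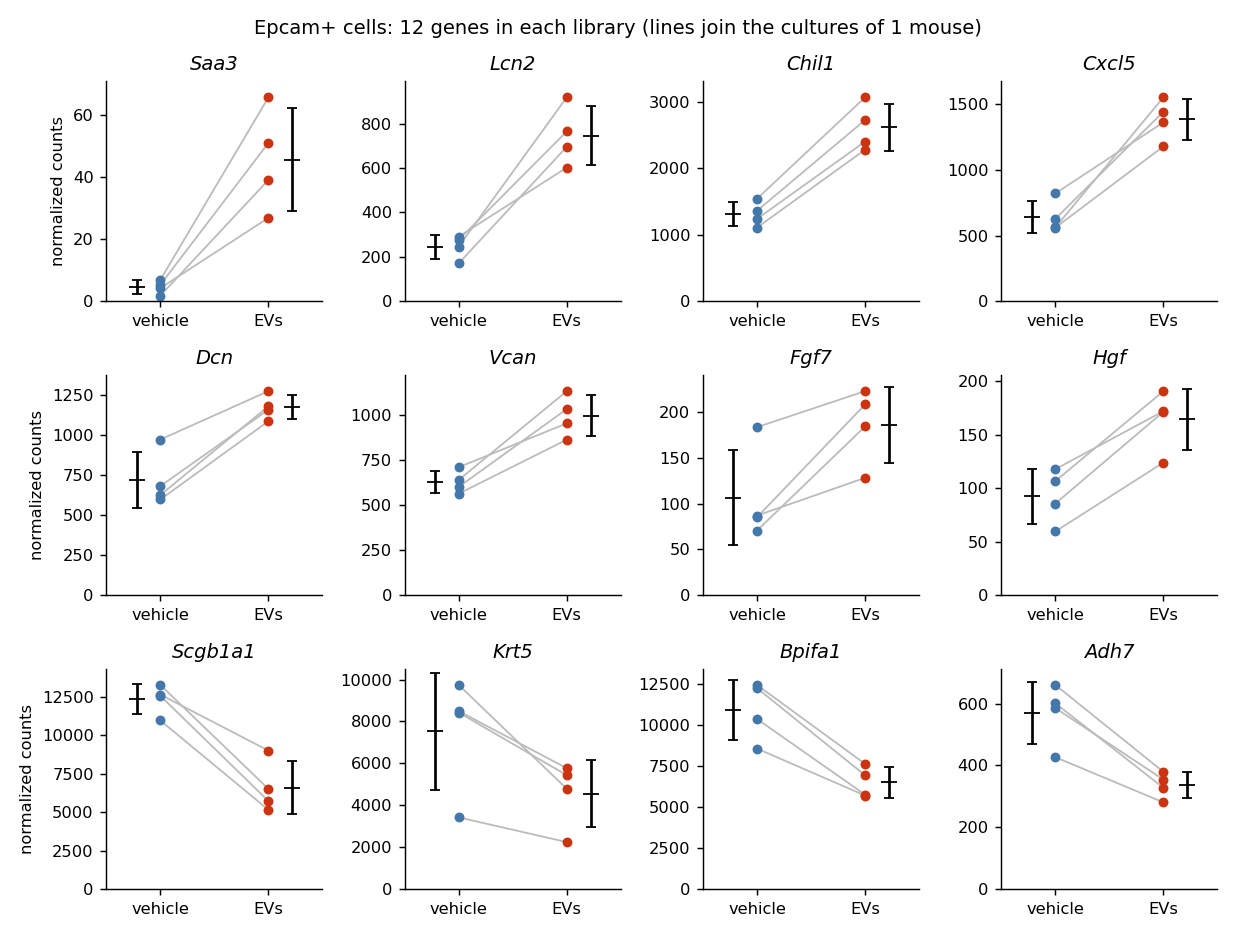
Normalized counts of 12 genes in the 8 Epcam+ libraries, with 1 panel per gene, vehicle in blue, EVs in red and a grey line for each mouse. Black marks give the mean and SD of 4 libraries, and in all 12 genes the 4 lines run in 1 direction.

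In the list of acute phase and antimicrobial genes, 6 of the 11 tested rose and none fell (Lcn2, Saa3, Chil1, Slpi, Lbp and Cp), and the median log2 fold change of the list was 0.55, against -0.0031 over all genes. Slpi, an inhibitor of neutrophil elastase, gained 0.63 ± 0.11, Lbp, which presents lipopolysaccharide to its receptor, 0.55 ± 0.11, and ceruloplasmin (Cp) 0.31 ± 0.070 on the log2 scale. Lrg1 stood at a log2 fold change of 0.82 ± 0.22 without passing the test (edgeR adjusted p = 0.0904). Of 12 chemokine ligands, 2 rose (Cxcl3 and Cxcl5), with a median of 0.29. Cxcl1 did not pass at 0.55 ± 0.17 (edgeR adjusted p = 0.166) and was lower with EVs in mouse 4. C3, the central complement component, rose by 0.45 ± 0.093 and was the 1 call of edgeR among 10 complement genes, of which 9 fell under 0.05 before adjustment and DESeq2 called 4 (median 0.42, with 8 of 10 above 0).

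The wider signalling lists gave no calls. None of 18 NF-kB subunits and feedback genes (median log2 fold change 0.049), 13 genes of the Toll-like receptor pathway (median 0.071) and 20 genes of interferon response and MHC class I (median 0.10) passed edgeR's test. At an unadjusted p under 0.05 there were 2, 0 and 1 genes in these lists, and DESeq2 called 0 in each.

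The sequences upstream of these secreted genes are shown because the genes moved together. Of Chil1, Cxcl3, Cxcl5, Lcn2, Saa3 and Vnn3, 5 were matched by symbol in the RefSeq promoter table (GRCm38.p6). The 250 bases before the annotated start of each were searched on both strands for GGANTTTCC, from the core of an NF-kB motif, and TTGCNNAA, the core of a C/EBP motif, and matches are in capitals. These letters were chosen after the expression values had been seen.
Chil1 (chr1:134181906-134182155, plus strand): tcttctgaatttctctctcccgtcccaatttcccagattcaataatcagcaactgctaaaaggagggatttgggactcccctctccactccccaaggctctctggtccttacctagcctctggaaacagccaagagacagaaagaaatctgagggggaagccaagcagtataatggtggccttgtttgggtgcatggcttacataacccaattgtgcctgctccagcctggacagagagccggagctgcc
Cxcl3 (chr5:90785851-90786100, plus strand): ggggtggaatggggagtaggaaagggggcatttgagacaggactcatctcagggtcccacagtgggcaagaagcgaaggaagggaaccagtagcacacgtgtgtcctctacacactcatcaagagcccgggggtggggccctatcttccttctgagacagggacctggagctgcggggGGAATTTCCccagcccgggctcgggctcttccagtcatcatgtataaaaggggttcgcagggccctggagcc
Lcn2 (chr2:32387740-32387989, minus strand): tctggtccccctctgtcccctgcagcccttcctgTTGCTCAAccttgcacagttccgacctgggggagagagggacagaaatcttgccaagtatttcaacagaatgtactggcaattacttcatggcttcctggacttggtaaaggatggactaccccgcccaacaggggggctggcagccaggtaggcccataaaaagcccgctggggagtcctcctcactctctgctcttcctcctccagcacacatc
Saa3 (chr7:46715677-46715926, minus strand): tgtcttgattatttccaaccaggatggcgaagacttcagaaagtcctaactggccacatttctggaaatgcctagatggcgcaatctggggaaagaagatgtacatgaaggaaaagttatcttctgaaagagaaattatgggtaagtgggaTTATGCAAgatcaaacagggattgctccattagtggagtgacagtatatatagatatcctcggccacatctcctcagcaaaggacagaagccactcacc
Vnn3 (chr10:23851212-23851461, plus strand): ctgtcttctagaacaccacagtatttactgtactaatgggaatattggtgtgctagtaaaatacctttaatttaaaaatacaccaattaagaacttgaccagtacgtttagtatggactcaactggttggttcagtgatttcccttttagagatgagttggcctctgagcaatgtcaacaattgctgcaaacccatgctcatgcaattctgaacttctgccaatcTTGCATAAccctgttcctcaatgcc

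In Cxcl3 the match to the NF-kB letters started 72 bases before the transcript start. In Vnn3, Saa3 and Lcn2 the C/EBP letters began 25, 99 and 216 bases before it, on the opposite strand in Saa3, and the window of Chil1 held neither string, although a looser NF-kB string tried before did match there. The NF-kB letters were present in 1.09% and the C/EBP letters in 7.47% of 11696 promoters of the genes tested, of which 9119 had an entry. Among promoters of genes that rose, 1 of 53 held the NF-kB letters and 8 of 53 (15.1%) the C/EBP letters, and among those of genes that fell, 9 of 39 (23.1%) held the C/EBP letters. A match describes letters in this window and does not show binding.

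Genes of fibroblasts and of the matrix also rose, 12 of them in the fibroblast signature, the matrix list or the collagens. Decorin (Dcn), a small proteoglycan that binds collagen fibrils, went from 597, 680, 625 and 971 normalized counts to 1085, 1157, 1179 and 1273 (log2 fold change 0.73 ± 0.12, edgeR adjusted p = 0.00406). Vcan, the large proteoglycan versican, went from 600, 563, 639 and 710 to 1033, 863, 1133 and 954 (log2 fold change 0.67 ± 0.11, edgeR adjusted p = 0.00406). Neither gene overlapped between the groups. Col1a2, a chain of type I collagen, did overlap, with 4315, 4378, 4988 and 6894 against 6246, 8080, 7203 and 7903 (log2 fold change 0.53 ± 0.093, edgeR adjusted p = 0.00576), since its vehicle-treated library of mouse 4 was high. The call of Dcn was lost without mouse 2 or 3, and those of Vcan and Col1a2 without mouse 1, 2 or 3 (edgeR adjusted p between 0.0541 and 0.114). Of the 24 collagen genes tested, 8 rose and none fell, with a median of 0.34. In the fibroblast signature given with the study, 4 of 9 genes rose (Dcn, Lum, Col1a2 and Fn1), with a median of 0.36. Of the 9 genes 8 lay above 0, and the lowest stood at -0.60 without a call. A list of matrix genes, proteases and inhibitors had 3 of 22 genes higher (Col4a1, Col4a2 and Spp1) and a median of 0.21.

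Paracrine factors of fibroblasts rose as well. Hgf, the ligand of the receptor Met on epithelial cells, went from 85.6, 59.5, 107 and 118 to 171, 124, 191 and 172 (log2 fold change 0.85 ± 0.15, edgeR adjusted p = 0.00689). Fgf7, the ligand of the epithelial receptor Fgfr2b, went from 70.6, 87.1, 85.2 and 184 to 185, 128, 209 and 223 (log2 fold change 0.90 ± 0.19, edgeR adjusted p = 0.0199). The Hgf values of the groups did not overlap, whereas the Fgf7 values did through mouse 4. Neither call held without mouse 1 or without mouse 3, at edgeR adjusted p values between 0.108 and 0.332. Of the 24 genes of growth factor signalling, these 2 rose and Wnt4 fell (-0.62 ± 0.14). Pik3r5, a regulatory subunit of a phosphoinositide kinase, rose from 89.8, 70.1, 140 and 109 to 209, 187, 264 and 247 (log2 fold change 1.17 ± 0.14, edgeR adjusted p = 5.81e-05). Hsd11b1, which regenerates active glucocorticoid, rose by 1.56 ± 0.34 and Cdh11, a cadherin of mesenchymal cells, by 1.14 ± 0.24 on the log2 scale. Of 23 genes of glycolysis and hypoxia, Pgk1 (0.30 ± 0.067), Vegfa (0.47 ± 0.092) and P4ha1 (0.34 ± 0.083) rose.

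The level of fibroblast transcripts in the Epcam+ libraries moved with these genes. The summed level of 9 fibroblast signature genes was 2284, 2269, 2445 and 3134 CPM with vehicle and 3166, 3413, 3801 and 3722 CPM with EVs, without overlap, while CCL206 libraries with vehicle held 11930 to 13050 CPM. Of the 63 genes that rose, 55 had a higher level in vehicle-treated CCL206 than in vehicle-treated Epcam+ libraries, with a median of 420% of the Epcam+ level. This held for 1 of the 41 genes that fell and for 49.0% of all genes tested. In bulk RNA, a larger share of fibroblasts and more RNA of these genes per cell cannot be told apart.

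Genes were then ranked by the ratio of their CCL206 level to their Epcam+ level in the SF and OGN cultures, which are in neither group compared. Among the 546 genes with a CCL206 level over 4 times the Epcam+ level, 31 rose, none fell, and the median log2 fold change with EVs was 0.40. The median of these genes was 0.46, 0.44, 0.50 and 0.15 in mice 1 to 4. Mouse 4 also had the highest fibroblast signature sum with vehicle. Each difference subtracts the vehicle level of the same mouse, so these values are linked by arithmetic, and a relation between them was not tested. Among the 791 genes with a CCL206 level under 0.25 of the Epcam+ level, 3 rose, 21 fell, and the median was -0.11.

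**Figure D3:**
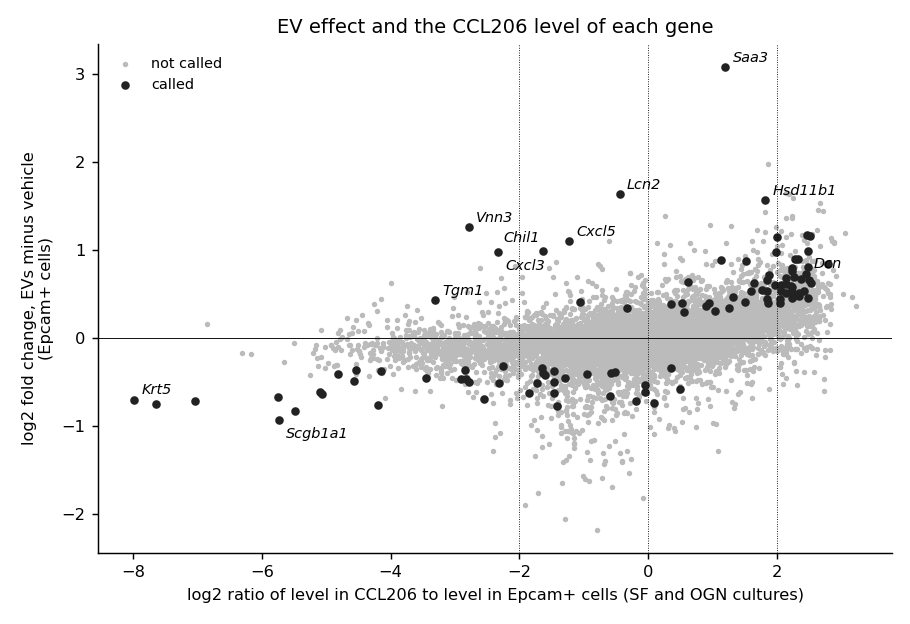
Log2 fold change of EVs against vehicle in Epcam+ cells (vertical axis) and log2 ratio of the CCL206 level to the Epcam+ level in SF and OGN cultures (horizontal axis), 1 point per gene, with called genes in black and dotted lines at ratios of 0.25, 1 and 4. Called genes with a high ratio lie above 0 and most called genes with a low ratio lie below, with Vnn3, Cxcl3, Cxcl5, Chil1, Lcn2 and Tgm1 among the exceptions above 0.

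When the fibroblast signature level of each library was added to the model, an alternative chosen after the data had been seen, 7 genes were called, 5 of them among the 104. Chil1, Lcn2, Cxcl5 and Saa3 kept their calls, at log2 fold changes of 0.98, 1.44, 1.37 and 2.99 (edgeR adjusted p between 0.00412 and 0.0206). The other defence genes lost theirs. Slpi, Lbp, Cp and C3 stood at 0.54, 0.19, 0.29 and 0.091 (edgeR adjusted p between 0.667 and 0.934). Cxcl3 and Vnn3 stood at 1.22 and 1.65 (edgeR adjusted p = 0.259 and 0.526). Of the 55 genes with a higher CCL206 level none kept its call, and their median log2 fold change went from 0.59 to 0.30. Dcn stood at 0.18 and Fn1 at -0.059. Dcn, Lum, Col1a2 and Fn1 belong to the signature, so their own counts are part of the level added. Their change is drawn down by construction. For the 8 genes with a lower CCL206 level the median went from 1.05 to 1.29. Both classes were set by the vehicle-treated libraries. Saa3 is among the 8 through levels near the floor, 0.70 CPM in Epcam+ and 0.43 CPM in CCL206 libraries. In the SF and OGN cultures its CCL206 level was above its Epcam+ level. The 41 lower genes kept a median of -0.50, compared with -0.51, but only Lgi3 kept its call (-0.90, edgeR adjusted p = 0.0260). The fibroblast level itself separated the groups, so its effect and that of EVs cannot be fully told apart.

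**Figure D4:**
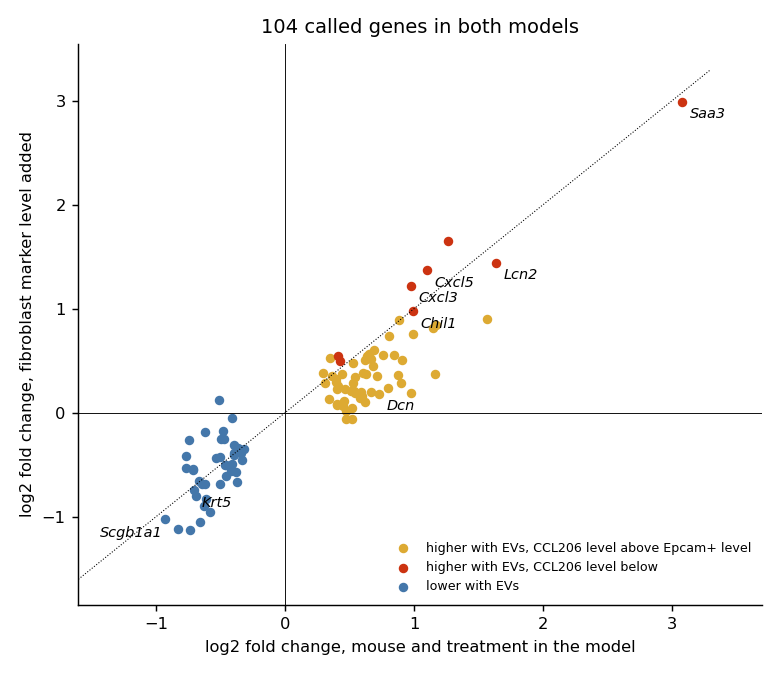
Log2 fold changes of the 104 called genes with mouse and treatment in the model (horizontal axis) and with the fibroblast signature level added (vertical axis). On the dotted line both are equal. Genes that rose and had a higher CCL206 level with vehicle (yellow) lie mostly below it, whereas Saa3, Lcn2, Chil1, Cxcl3 and Cxcl5 (red) lie near it or above.

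Basal cell genes of the airway were lower with EVs. Krt5, the keratin that defines basal cells, went from 8497, 9745, 8429 and 3417 normalized counts with vehicle to 5766, 4784, 5436 and 2237 with EVs (log2 fold change -0.70 ± 0.095, edgeR adjusted p = 4.32e-04). Krt15 went from 3340, 3916, 2415 and 1435 to 2079, 1970, 1558 and 969 (-0.72 ± 0.10, edgeR adjusted p = 7.66e-04), and Aqp3, a water and glycerol channel of basal cells, from 2460, 2726, 2367 and 879 to 1441, 1707, 1535 and 583 (-0.67 ± 0.083, edgeR adjusted p = 1.15e-04). Each fell in every mouse, but the groups overlapped because mouse 4 was low in both. These calls held without any 1 mouse and were lost in a model without mouse, where the edgeR adjusted p was between 0.517 and 0.705. The other 7 basal markers did not pass the test, among them Trp63, the basal lineage factor (-0.40 ± 0.17, edgeR adjusted p = 0.392), and the median of the 10 was -0.37.

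Club cell genes were lowered in the same libraries. Scgb1a1, the main secretory protein of club cells, went from 13283, 12576, 12654 and 10969 to 6514, 5723, 9007 and 5150 (log2 fold change -0.93 ± 0.14, edgeR adjusted p = 0.00141). Bpifa1, an antimicrobial protein of airway secretions, went from 10371, 12450, 12255 and 8565 to 5754, 7630, 6935 and 5701 (-0.75 ± 0.11, edgeR adjusted p = 7.44e-04). Neither gene overlapped between the groups. With Cckar (-0.83 ± 0.14), Cyp2f2 (-0.48 ± 0.093) and Aldh1a1 (-0.41 ± 0.091), 5 of 8 club cell markers fell and none rose. The summed level of the 8 markers was 6550, 6513, 6865 and 5377 CPM with vehicle and 4005, 4470, 4846 and 4129 CPM with EVs. Fewer club cells and less RNA of these genes per cell cannot be told apart. None of 5 ciliated cell markers passed edgeR's test (median -0.16), 2 had an unadjusted p under 0.05, and DESeq2 called 0.

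**Figure D5:**
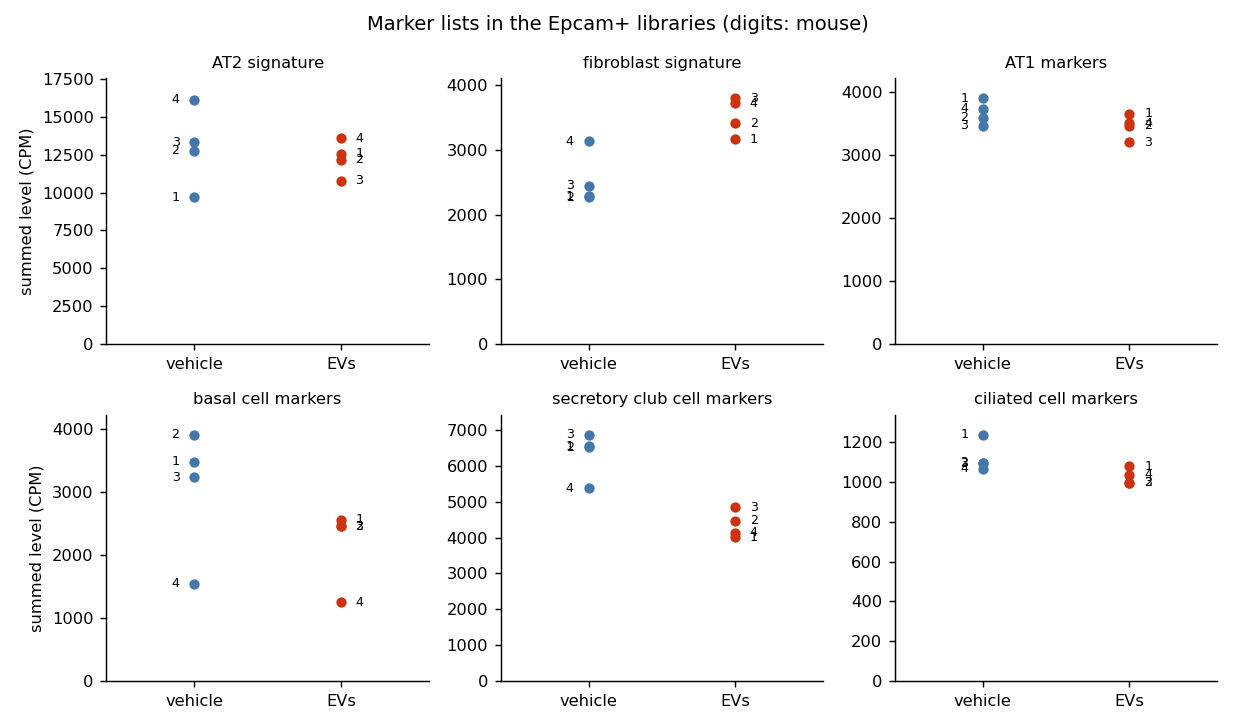
Summed level in CPM of 6 marker lists in the 8 Epcam+ libraries, with the mouse number beside each point. The fibroblast signature is higher with EVs and the club cell list lower without overlap, and mouse 4 is lowest in the basal cell list in both groups.

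Enzymes that detoxify aldehydes and foreign compounds fell, among them Cyp2f2 and Aldh1a1 of the club cell list. Of 26 genes tested, 8 fell and none rose, with a median of -0.21. Adh7, an alcohol dehydrogenase that oxidizes retinol, went from 602, 661, 586 and 427 to 328, 379, 354 and 281 (log2 fold change -0.76 ± 0.11, edgeR adjusted p = 5.67e-04), without overlap. The others were Ces1g (-0.72 ± 0.14), Aldh3a1 (-0.51 ± 0.12), Ces1d (-0.49 ± 0.096), Gsta3 (-0.47 ± 0.11) and Gstm1 (-0.39 ± 0.087). The 22 antioxidant and glutathione genes gave no call in edgeR's test (median -0.079), with 5 at an unadjusted p under 0.05 and 1 called by DESeq2. The metallothionein Mt1 went from 1468, 1449, 1257 and 1420 to 1032, 1051, 1004 and 641 (-0.61 ± 0.11, edgeR adjusted p = 0.0103).

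Few alveolar identity genes were called. Of the 10 genes of the AT2 signature, Slc34a2, the phosphate transporter of AT2 cells, fell from 6727, 5591, 5685 and 6515 to 5599, 4705, 4554 and 4864 (log2 fold change -0.31 ± 0.075, edgeR adjusted p = 0.0473), and the median was -0.067. Sftpb stood at -0.060 ± 0.083. Sftpc, the 1 gene of the 10 above 0, stood at 0.011 ± 0.34, an estimate that includes the low vehicle-treated library of mouse 1. Its log2 difference was 2.75 in mouse 1 and -0.32, -0.56 and -0.55 in mice 2 to 4. Lgi3, a secreted protein, went from 805, 712, 581 and 763 to 547, 449, 360 and 506 (-0.62 ± 0.092, edgeR adjusted p = 9.56e-04), without overlap. edgeR made no call among 11 AT1 markers (median -0.060), where Ager, the receptor that marks AT1 cells, stood at -0.37 ± 0.093 (edgeR adjusted p = 0.0619), or among 18 genes of the transitional state between AT2 and AT1 cells (median -0.014). In these lists 1 and 4 genes had an unadjusted p under 0.05, and DESeq2 called 1 and 0. None of 24 genes of cell cycle and replication passed edgeR's test (median -0.031), with 1 at an unadjusted p under 0.05 and 0 called by DESeq2. Of the 20 lineage transcription factors, Foxa1, a factor of airway and alveolar lineages, fell (-0.36 ± 0.084). Of the 90 ribosomal protein genes 1 fell (Rpl39), with a median of -0.13, and the 595 genes with transcripts under 1000 nt had a median of -0.089. The part of transcript length in these medians was not tested.

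SFs and OGN were compared with the same vehicle-treated libraries, so the values are given side by side. SFs changed 27 genes (0.23% of the genes) and OGN 316 (2.7%). Of the 104 genes changed by EVs, 19 were also called with SFs, which is 18.3% of the EV genes and 70.4% of the SF genes, and 57 with OGN, which is 54.8% of the EV genes and 18.04% of the OGN genes. The shared vehicle-treated libraries favour such overlap by construction. The log2 fold change of Chil1 was 0.99 with EVs, 1.28 with SFs and 2.17 with OGN. That of Lcn2 was 1.64, 1.91 and 3.63, and that of Saa3 3.08, 3.88 and 7.06. Krt5 stood at -0.70, -0.68 and -0.58, and Scgb1a1 at -0.93, -0.71 and -0.96.

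The differences between treatments were tested directly. EVs and SFs differed in 3 genes (0.0256%), of which Aox3, an aldehyde oxidase (-0.44 ± 0.076, edgeR adjusted p = 0.0332), and the AT2 transporter Slc34a2 (-0.45 ± 0.075, edgeR adjusted p = 0.0315) were lower with EVs than with SFs and belonged to the 104 genes. A gene that missed the threshold here was not shown to respond alike. EVs and OGN differed in 260 genes (2.22%), 31 of them among the 104. The defence genes were lower with EVs than with OGN, Saa3 by -3.98 ± 0.18, Lcn2 by -1.99 ± 0.13, Cxcl5 by -1.57 ± 0.11 and Chil1 by -1.17 ± 0.075 on the log2 scale (edgeR adjusted p at most 2.58e-09). Of the 12 genes of the fibroblast signature, the matrix list or the collagens that rose with EVs, 7 were higher with EVs than with OGN, among them Col1a2 (0.67 ± 0.093) and Fn1 (0.65 ± 0.11, edgeR adjusted p at most 7.18e-04 for both). The other 5 were not called, with Dcn (-0.41 ± 0.12, edgeR adjusted p = 0.0779) and Spp1 (-0.23 ± 0.10) below 0. Vcan (0.77 ± 0.11) was also higher with EVs than with OGN (edgeR adjusted p = 2.59e-04). Vcan and the 12 genes were chosen for high values in the same EV-treated libraries. That choice favours a higher level with EVs than with OGN. The fibroblast signature sum was 2028 to 2586 CPM with OGN and 2646 to 3562 CPM with SFs, and its part in these differences was not tested.

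The fibroblasts of the same cultures responded to EVs in 4206 of 11689 genes (36% of the genes), and the effect of EVs differed between populations in 2815 of 11805 genes (23.8%). Of the 104 genes, 46 were called in the same direction in CCL206 and 7 in the opposite direction, and the difference between populations was called for 35. Saa3 stood at 4.73, Lcn2 at 2.11 and Chil1 at 1.18 on the log2 scale in CCL206, and the difference from Epcam+ cells was not called for any of them (edgeR adjusted p between 0.0938 and 0.466). Slpi gained 1.68 in CCL206 and 0.63 in Epcam+ cells, a called difference of 1.01 (edgeR adjusted p = 0.00585). Hgf and Vcan rose in Epcam+ libraries but stood at -0.31 and -0.45 in CCL206, neither past the test, and both differences were called (-1.18 and -1.14, edgeR adjusted p = 0.00549 and 0.00923). Fn1, fibronectin, fell in CCL206 (-0.85, edgeR adjusted p = 0.0214) while it rose in Epcam+ libraries. The count of 2815 depended on mice 2 and 4, and was 351 without mouse 2, 259 without mouse 4 and 26 with mice 1 and 3 alone, a fit chosen after the data had been seen. In the EV-treated CCL206 libraries of mice 2 and 4 the fibroblast signature summed to 8690 and 7186 CPM, against 11691 and 13098 CPM in mice 1 and 3, and the markers of the alveolar transitional state to 5322 and 5619 CPM, against 3823 and 3953 CPM. The part of this shift in the 4206 calls in CCL206, and in the differences between populations, was not tested. With mice 1 and 3 alone the differences of Hgf (-0.89), Vcan (-0.72) and Slpi (0.55) were not called (edgeR adjusted p between 0.0617 and 0.153), and that of Fn1 (-0.85) was (edgeR adjusted p = 0.0455).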

How the data were processed

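RNA of re-sorted Epcam+ and CCL206 fractions (4 mice, 4 treatments, 32 libraries) was sequenced, and the authors deposited raw counts per gene for 11818 genes. Reads were trimmed with Trimmomatic (0.30). The labels name GRCm39 and the methods GRCm38 (patch 6), and the aligner, counting program and annotation are not given in the sources used here. Every listed gene was counted in all libraries. Promoters are from RefSeq on GRCm38.p6 and play no part in the counts.

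Groups followed the labels. edgeR 4.0.16 (R 4.3.3) was used with filterByExpr, TMM normalization and its quasi-likelihood F test on terms for mouse and treatment, over 16 Epcam+ libraries or, for the difference between populations, all 32. Adjustment was by Benjamini-Hochberg over all genes tested, and an adjusted p under 0.05 made a call. The SE was derived from the fold change and its F value. Normalized counts are scaled by TMM library size. The pipeline was tested on simulated data. Mouse numbers pair the libraries by design, as the labels give 1 mouse per number. The residuals of the paired libraries correlated at 0.111, 0.206, 0.080 and 0.107 in mice 1 to 4, and those of unlike mice at -0.040 on average. In a model without this replicate block 9 genes were called. No 2 libraries were identical. P values of the main fits measure the spread left after the terms for mouse and treatment, pooled over all 4 treatments. Differences in level between mice do not enter them. All values come from 4 mice of 1 experiment.

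Gene lists come from general knowledge and the study's signatures. Lists and named genes were chosen with earlier results of these data known. Named were the 15 genes with the smallest p in each direction, called genes over 2-fold, called list members and defining markers. Collagens as a family, Lrg1 and Cxcl1 and the promoter genes were chosen after their values were seen. Alternatives were the model without mouse, RLE size factors, DESeq2 1.42.0, only the libraries compared, no filter, at least 10 counts in every library, libraries thinned to equal depth, a test against a 1.2-fold change and each mouse left out. Added after seeing the data were the fibroblast signature level as a covariate and mice 1 and 3 alone. Figures were drawn with matplotlib.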

Additional observations from a re-analysis of the deposited data

Results flagged for a closer look

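In 4 of 122 groups of 4 libraries, 1 library lay far from the other 3, and chance gives about 1 in 20. Aldh1a1 had 2159 normalized counts in the EV-treated library of mouse 1, against 1944 to 1966 in the others. Fgf7 had 184 in the vehicle-treated library of mouse 4, against 70.6 to 87.1. Foxj1, a regulator of ciliated cells, had 1073 in the vehicle-treated library of mouse 2, against 1281 to 1304. Mt1 had 641 in the EV-treated library of mouse 4, against 1004 to 1051.

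The effect of EVs differed between CCL206 and Epcam+ cells in 13 of 55 named genes (edgeR's interaction test, adjusted p under 0.05, against 23.8% of all genes tested). The share among named genes was about that of all genes, so the named genes did not stand out as a set. Given as the log2 fold change in CCL206 minus that in Epcam+ cells, the difference was negative for Fn1 (-1.34), Hgf (-1.18), Vcan (-1.14), Cdh11 (-1.03), Pik3r5 (-0.96), Fbln2 (-0.61), C3 (-0.60) and Lbp (-0.50). It was positive for Retnla (1.21), Aqp3 (1.19), Mt1 (1.17), Slpi (1.01) and Pgk1 (0.38). In the fit with mice 1 and 3 alone, chosen after the data had been seen, only Fn1 of these genes kept its call. Its difference there was -0.85 (edgeR adjusted p = 0.0455). The others kept their sign at a smaller size and were not called. Leaving out mice also reduces the data by construction.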

How the results depend on the processing

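The calls depended on the processing. Under the 12 alternatives listed with the methods and not added later, 3 of the 104 genes kept their call in all 12 (Chil1, Lcn2 and Cxcl5). All 104 kept their direction wherever they were tested (4 were removed by the filter of 10 counts). The alternatives reuse the same libraries, and each gene had moved in 1 direction in 4 of 4 mice. Direction could therefore hardly turn, and its keeping is no separate support. The 104 calls of EVs against vehicle became 9 without the replicate block (mouse), 201 with DESeq2, 11 after thinning to equal depth, 12 against a 1.2-fold change and 17 to 156 with 1 mouse left out. With the fibroblast signature level as a covariate, chosen after seeing the data, 7 genes were called. In that fit 3 of the 104 genes turned direction, Fn1 (-0.059), Flnc (-0.063) and Aldh3a1 (0.12), and Fn1 is itself part of the signature. The 3 genes that differed between EVs and SFs became 0 without the block, 25 with DESeq2, 1 with only the libraries compared, 0 after thinning, 0 against a 1.2-fold change and 0 to 2 with 1 mouse left out. The 260 genes that differed between EVs and OGN became 413 with DESeq2, 37 after thinning, 103 against a 1.2-fold change and 132 to 191 with 1 mouse left out. The 2815 genes that differed between populations became 846 with only the libraries compared, 293 after thinning, 1219 against a 1.2-fold change, 259 to 2976 with 1 mouse left out and 26 with mice 1 and 3 alone, also chosen after seeing the data. Thinning, left-out mice and fewer libraries reduce the data by construction. For the rest the cause was not tested. Depth limits the genes with few counts, such as Saa3.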
